A study of Homo sapiens with 6 samples.

Results

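Fibroblast growth factor 19 (FGF19), 3 further FGF ligands, the 4 FGF receptors, the co-receptor gene KLB and the adaptor gene FRS2 were followed in 6 RNA libraries of HCT8, a line labelled as human colorectal cancer. The 10 genes were taken by symbol from a table of 60664 Ensembl genes, and each matched 1 row. They were selected on a measured value, the fall of FGF19 with GPT1 overexpression, so that its values, and those of the other 9 genes in the same contrast, are descriptions and are given without p-values. Of the 10 genes, 8 had enough counts to enter the fit of 17638 genes, and FGF18 and KLB did not. A gene is said to pass the threshold, to rise or to fall where its edgeR p-value, adjusted over all tested genes, was under 0.05.

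The control group was 3 libraries of HCT8 cells, labelled wild type, that had received a control plasmid. The other group was 3 libraries of the same line after transfection with a plasmid that overexpresses GPT1, the cytosolic alanine aminotransferase. All cells grew in DMEM with fetal bovine serum, and the time after transfection, any selection and the number of cultures are not stated in the labels. No source states that the libraries of a group were separate cultures, so the errors measure only the spread between these libraries, which may be technical.

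FGFs are secreted ligands that bind receptor tyrosine kinases on the cell surface together with heparan sulfate, a sugar chain of proteoglycans. FGF19 belongs to the endocrine FGFs, which bind heparan sulfate weakly and signal through a receptor paired with a klotho protein; for FGF19 these are mainly FGFR4 and beta-klotho, the product of KLB. In the ileum, bile acids induce FGF19 through the nuclear receptor FXR, and the hormone represses bile acid synthesis in the liver. Activated FGF receptors phosphorylate the membrane-anchored adaptor FRS2, which recruits GRB2, SOS and PTPN11 and so feeds the RAS and ERK cascade.

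The libraries held 21255655 to 32487217 counts, control replicate 3 being the shallowest. The overexpressed gene, GPT, gave 9, 14 and 3 counts in control replicates 1 to 3, against 105529, 96886 and 106063 with the GPT1 plasmid. Of 15 colorectal epithelial markers, CDX1, KRT20, CEACAM5 and GPA33 lay under 0.5 CPM (the usual per-library scaling of counts, here on the library total) on average, and 10 of the 11 tested markers fell. The summed level of the list was 908 to 1034 CPM in the controls and 567 to 626 CPM in the GPT1 libraries. KRT8 (488 to 561 and 331 to 361 CPM) and KRT18 (235 to 275 and 158 to 177 CPM) were its highest members and dominate the sum. CDX2 did not fall, with 42.5, 45.4 and 37.7 CPM in the controls and 47.7, 41.6 and 45.9 CPM in the GPT1 libraries. Of 11 neural and kidney-line markers, 9 were tested and 3 fell, with sums of 464 to 567 and 254 to 263 CPM. NEFH, STMN2 and PAX8 lay under 0.5 CPM in that list. NEFM, its highest member, stood at 291, 250 and 342 CPM in the controls and 100, 103 and 107 CPM in the GPT1 libraries. NEFL had 146 to 159 and 82.3 to 83.1 CPM, and INA 51.7 to 52.4 and 59.3 to 62.5 CPM. Among fibroblast markers 3 of 7 tested rose (54.5 to 58.6 against 68.3 to 70.3 CPM in sum) and FAP and THY1 had 0 counts. Endothelial, leukocyte, hepatocyte and erythroid sums stayed at or below 4.47 CPM in every library, with CD3E, HBA2 and HBB at 0 counts. The part that these marker differences play in the values below was not tested.

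FGF19 transcripts fell 4.59-fold in the GPT1 libraries. FGF19 (ENSG00000162344) lies on chromosome 11 of GRCh38 at 69698232 to 69704642, on the minus strand. Control replicates 1 to 3 gave 312, 274 and 140 counts, and GPT1 replicates 1 to 3 gave 59, 56 and 51. Scaled to library size with TMM factors, this was 9.53, 8.69 and 6.47 CPM against 1.90, 1.83 and 1.67 CPM. Every control library lay above every GPT1 library, and control replicate 3 was the lowest of its group. The means were 8.23 ± 1.58 and 1.80 ± 0.12 CPM (SD, n = 3 per group). The log2 fold change was -2.20 ± 0.18 (SE), with a 95% interval of -2.60 to -1.80. Of all tested genes, 79 (0.448%) fell by at least this much. In bulk RNA, fewer cells that express a gene and less RNA per cell cannot be told apart.

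The other FGF ligands of the set were steadier. FGF2, a ligand that is made without a signal peptide and binds heparan sulfate strongly, stood at 21, 20 and 27.1 CPM in the controls and 16.3, 20.3 and 16.7 CPM in the GPT1 libraries. GPT1 replicate 2 lay inside the control range, so the groups overlapped, and control replicate 3 was the highest library. Its log2 fold change was -0.35 ± 0.15 (SE; 95% interval -0.67 to -0.03) and did not pass the threshold. NUDT6 lies across FGF2 on the opposite strand (10.7 ± 0.616 and 11.4 ± 0.819 CPM; SD, n = 3 per group), and without a stated strand setting the reads of the overlap cannot be told apart. FGF9, a ligand known from mesenchymal and gonadal development, had 2.69, 2 and 2.73 CPM in the controls. The GPT1 libraries had 2.25, 1.93 and 2.35 CPM, which overlaps the control range (log2 fold change -0.17 ± 0.19 SE). FGF18, a ligand of skeletal growth and a known Wnt target in colorectal tumours, was scarce, at 6, 18 and 6 counts in control replicates 1 to 3 and 10, 16 and 4 in GPT1 replicates 1 to 3. Both groups summed to 30 counts.

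**Figure D1:**
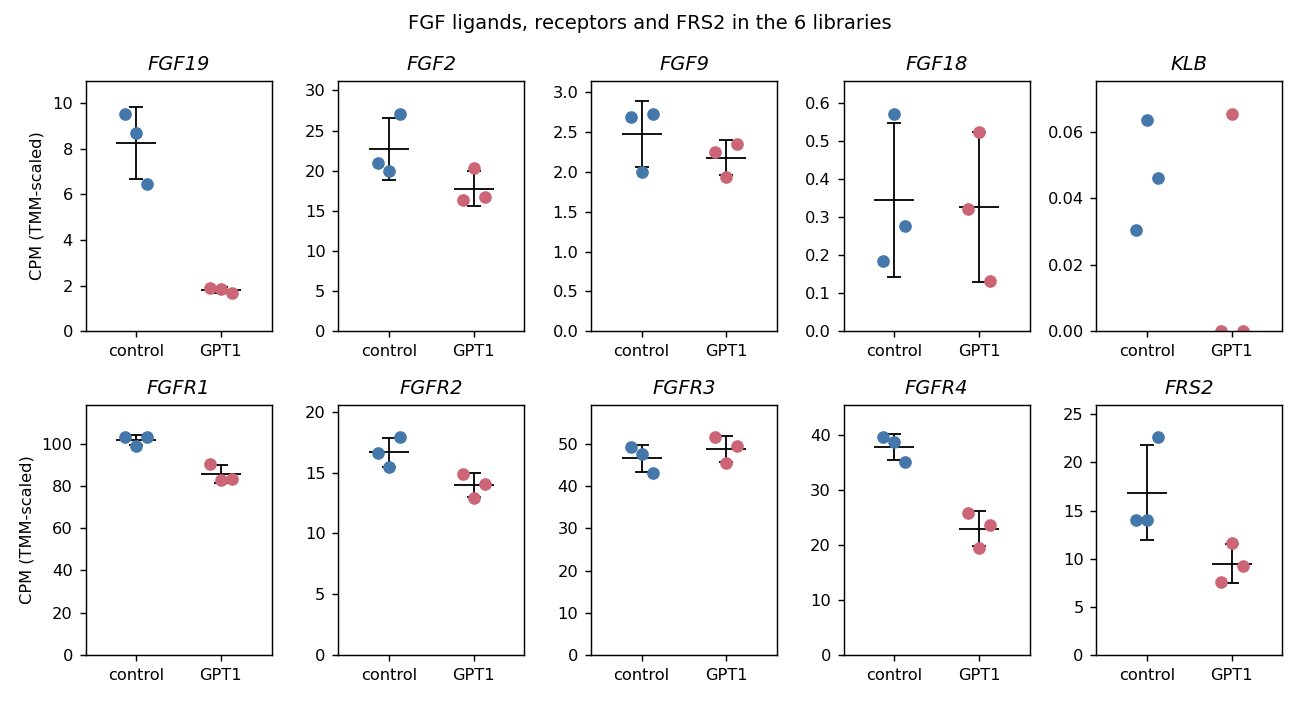
CPM with TMM scaling (y axis, from 0, a scale per panel) of the 10 genes in 3 control libraries (blue) and 3 GPT1 libraries (red); black bars give the mean and SD, not drawn for KLB, which has at most 2 counts per library. FGF19 separates furthest, from 6.47 to 9.53 CPM in the controls and 1.67 to 1.90 CPM in the GPT1 libraries, while FGF2, FGF9, FGF18, KLB and FGFR3 overlap.

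KLB, the co-receptor that FGF19 uses in liver, was barely detected in either group. Control replicates 1 to 3 held 1, 2 and 1 of its counts, and GPT1 replicates 1 to 3 held 0, 2 and 0. At 4 and 2 counts per group no fold change can be given. KL, the klotho co-receptor of FGF23, was as scarce, with 2, 0 and 0 counts against 1, 0 and 1. The ligand FGF19 was therefore measured in cells in which the transcripts of both klotho co-receptors lay near the floor in all 6 libraries.

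The 4 receptor genes, which encode tyrosine kinases with overlapping ligand ranges, differed in how they moved. FGFR4 (ENSG00000160867, chromosome 5, 177086886 to 177098144, plus strand), the main receptor of FGF19, stood at 39.5, 38.6 and 35.0 CPM in the controls. In the GPT1 libraries it was 25.7, 19.5 and 23.5 CPM. All GPT1 libraries lay below all controls, and FGFR4 fell 1.65-fold (log2 fold change -0.72 ± 0.12 SE, 95% interval -0.99 to -0.45). FGFR3 (ENSG00000068078, chromosome 4, 1793293 to 1808872, plus strand) had 49.3, 47.6 and 43.1 CPM in the controls and 51.6, 45.5 and 49.6 CPM in the GPT1 libraries. The groups overlapped, and the 95% interval of its log2 fold change, -0.15 to 0.28, spans 0.

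FGFR1 (ENSG00000077782, chromosome 8, 38400215 to 38468834, minus strand), a receptor abundant in mesenchymal cells, showed the smallest spread between libraries. It stood at 103, 98.9 and 103 CPM in the controls and 90.5, 82.6 and 83.5 CPM in the GPT1 libraries. The coefficient of variation of the controls was 2.15%, against 1.86% from counting alone. The groups did not overlap, and the log2 fold change was -0.25 ± 0.08 (SE). It passed the threshold by a small margin, and leaving out any 1 library ended that (-0.29 to -0.20). LETM2 overlaps FGFR1 on the opposite strand (9.47 ± 0.671 and 7.85 ± 0.72 CPM; SD, n = 3 per group). FGFR2 (ENSG00000066468, chromosome 10, 121478334 to 121598458, minus strand), whose epithelial splice form is the receptor of FGF7 and FGF10, had 16.6, 15.5 and 17.9 CPM in the controls. The GPT1 libraries had 14.9, 12.9 and 14.1 CPM, below each control, but its log2 fold change of -0.26 ± 0.12 (SE) did not pass. Counts per gene do not separate the splice forms of these receptors.

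FRS2 (ENSG00000166225, chromosome 12, 69470349 to 69579789, plus strand), the adaptor that couples the receptors to RAS, was lower in the GPT1 libraries. It had 14, 14 and 22.6 CPM in the controls and 7.62, 11.6 and 9.25 CPM in the GPT1 libraries. Control replicate 3 stood apart from the other controls, and the spread of 29.3% between controls compares with 4.65% from counting alone. FRS2 fell 1.77-fold (log2 fold change -0.82 ± 0.21 SE). The value did not pass without GPT1 replicate 1 (-0.69) or GPT1 replicate 3 (-0.80), and it was -0.55 without control replicate 3.

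The promoters of FGFR4, FGFR3 and FRS2 are shown because FGFR4 and FRS2 fell and FGFR3 did not pass. The GC content of the windows below was 78.7% for FGFR4, 86.3% for FGFR3 and 61.0% for FRS2. FGFR2, which did not pass either, is not shown (79.3% at the first of its starts). RefSeq windows (GRCh38.p14, 250 bases before to 50 after the start) matched 7 of the 10 genes, and FGF19, FGF9 and FGFR1 had none in the table. All 3 windows are on the plus strand, at chr5:177086665-177086964 for FGFR4 (the first of 2 starts), chr4:1793043-1793342 for FGFR3 and chr12:69470138-69470437 for FRS2. Capitals mark matches, on either strand, to the GC box GGGCGG, the ETS motif CCGGAAG, the AP-1 motif TGANTCA, the E-box CACGTG, the CCAAT box CCAAT and the TATA box TATAAA.
FGFR4: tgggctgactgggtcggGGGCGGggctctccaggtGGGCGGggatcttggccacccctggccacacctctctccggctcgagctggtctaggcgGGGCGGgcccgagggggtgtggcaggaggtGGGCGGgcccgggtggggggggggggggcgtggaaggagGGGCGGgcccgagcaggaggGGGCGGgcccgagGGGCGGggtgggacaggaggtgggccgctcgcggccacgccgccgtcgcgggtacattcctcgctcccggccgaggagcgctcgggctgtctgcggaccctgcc
FGFR3: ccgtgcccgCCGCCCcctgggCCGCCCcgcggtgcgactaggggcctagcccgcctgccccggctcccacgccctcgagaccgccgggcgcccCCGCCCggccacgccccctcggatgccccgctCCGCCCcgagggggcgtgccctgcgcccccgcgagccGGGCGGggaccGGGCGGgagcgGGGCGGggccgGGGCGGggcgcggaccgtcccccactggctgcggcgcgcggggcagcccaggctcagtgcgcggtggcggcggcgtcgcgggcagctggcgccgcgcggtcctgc
FRS2: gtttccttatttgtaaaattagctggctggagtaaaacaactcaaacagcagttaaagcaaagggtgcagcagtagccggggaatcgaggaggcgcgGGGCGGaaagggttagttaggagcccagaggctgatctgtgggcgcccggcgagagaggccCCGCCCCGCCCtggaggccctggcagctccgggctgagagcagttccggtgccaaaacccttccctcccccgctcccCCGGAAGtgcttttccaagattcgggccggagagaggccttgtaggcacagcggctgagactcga
The FGFR4 window held 7 GC boxes, the FGFR3 window 8 and the FRS2 window 3, of which 2 overlap, a motif present in 45.0% of all 35116 windows of this length. The FRS2 window also held 1 ETS match, present in 10.3% of windows. AP-1 letters (7.71% of windows), an E-box (7.26%), a CCAAT box (34.6%) and a TATA box (11.5%) were in none of the 3 windows. The window of the second FGFR4 start (chr5:177089300-177089599, plus strand) held 1 E-box and 0 GC boxes, with 2 CG dinucleotides, and gene counts do not separate the starts. CG dinucleotides numbered 30 in FGFR4, 51 in FGFR3 and 18 in FRS2, against a median of 14 over all windows. A match is a run of letters and not a binding site, and the expression values say nothing on what binds there.

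In total 4 of the 8 tested genes passed the threshold, FGF19, FGFR1, FGFR4 and FRS2, all in the downward direction, beside 14.6% of all tested genes in that direction and 25.1% in either. Without GPT1 replicate 1 or GPT1 replicate 3 the number was 2. The groups did not overlap, with GPT1 lower, for 5 of the 8, the 4 named and FGFR2, beside 22.2% of all tested genes in that direction and 43.4% in either. The genes were chosen around this contrast, so nothing is read from these counts.

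The libraries also differed along transcript length and GC content. Across 14821 genes, which are not independent replicates, the log2 fold change had a Spearman correlation of -0.37 with transcript length and 0.36 with GC content. The deviation of control replicate 3 from the mean of all libraries correlated with GC content at -0.59, against -0.04 and 0.09 for control replicates 1 and 2. For GPT1 replicates 1 to 3 these correlations were 0.54, -0.14 and 0.33, so GPT1 replicate 1 deviated about as far in the other direction. FRS2 (36.9% GC), FGF2 (37.5%) and FGF9 (38.6%) have the lowest GC content among the 10 genes. FRS2 and FGF2 were highest in control replicate 3, as was FGF9 by a small margin (2.73 against 2.69 CPM in control replicate 1). FGFR4 (63.6%), FGFR3 (62.0%) and FGF19 (58.6%) have more. After a correction of every library for both trends, FRS2 had a log2 fold change of -0.37 ± 0.10 (SE) and was still past the threshold. FGF2 and FGF9 changed sign, to 0.09 ± 0.08 and 0.13 ± 0.20. FGF19 and FGFR4 stayed at -2.29 ± 0.15 and -0.76 ± 0.08. FGFR1, at -0.16 ± 0.06, no longer passed.

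**Figure D2:**
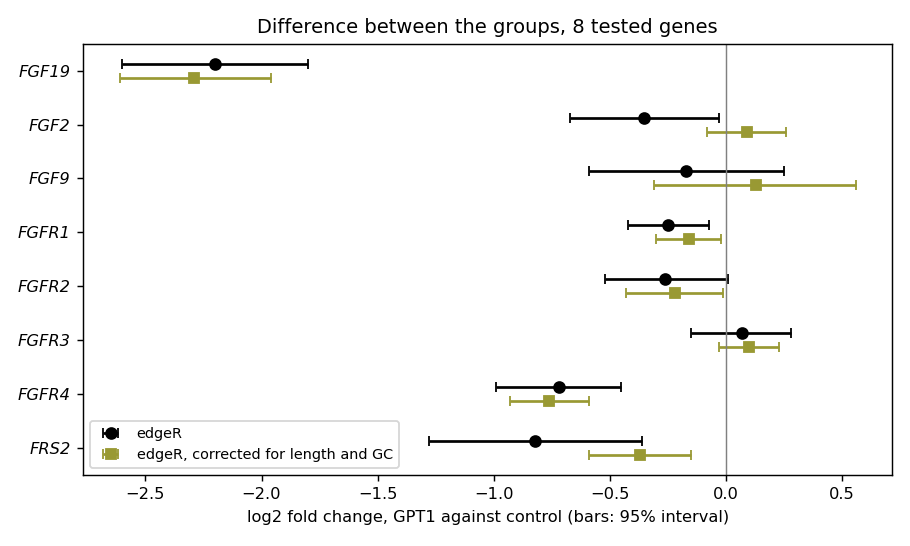
log2 fold change of GPT1 against control libraries (x axis) for the 8 tested genes, with 95% intervals, from edgeR (black circles) and from edgeR with each library corrected for transcript length and GC content (olive squares). FGF19 (-2.20 and -2.29) and FGFR4 (-0.72 and -0.76) lie in the same place in both, FRS2 moves from -0.82 to -0.37, and FGF2 and FGF9 cross 0.

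Levels of different genes can be compared once divided by transcript length. On CPM per kilobase of union exon length, the control libraries ordered the genes as FGFR3 (9.62 ± 0.657; SD, n = 3), FGFR4 (7.81 ± 0.49), FGFR1 (7.33 ± 0.158), FGF19 (3.36 ± 0.646), FGF2 (3.35 ± 0.567), FRS2 (2.33 ± 0.681), FGFR2 (2.20 ± 0.158), FGF9 (0.544 ± 0.0902), FGF18 (0.173 ± 0.102) and KLB (0.00768 ± 0.00271). The ranges of FGFR4 and FGFR1 overlapped, as did those of neighbours from FGF19 to FGFR2. In the GPT1 libraries FGFR3 (10.1 ± 0.642) led, followed by FGFR1 (6.18 ± 0.313), FGFR4 (4.74 ± 0.656) and FGF2 (2.62 ± 0.328), with no overlap between these neighbours. FGF19 moved from rank 4 to rank 7 (0.735 ± 0.0489), between FRS2 (1.31 ± 0.276) and FGF9 (0.480 ± 0.0483). With the longest transcript as length, FGFR1 led in both groups (16.3 and 13.8 CPM per kilobase), because its annotated exons cover 13842 bases and its longest transcript 6216. The order among the receptors therefore depends on the length used.

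Within each library the share of FGFR4 in the summed per-length level of the 4 receptors was 29.3%, 29.6% and 28.0% in the controls and 21.8%, 19.1% and 21.2% in the GPT1 libraries. The share of FGFR3 was higher in the GPT1 libraries, with 36.4%, 36.3% and 34.3% against 43.5%, 44.5% and 44.5%. Shares within a library depend on each other. The level of FGFR3 itself overlapped between the groups (9.62 ± 0.657 and 10.1 ± 0.642 CPM per kilobase of union exon length). Shares of FGFR1 (27.2% ± 1.22 and 27.1% ± 1.08; SD, n = 3 per group) and FGFR2 (8.18% ± 0.822 and 8.06% ± 0.0356) overlapped between the groups. With the longest transcript as length, FGFR4 went from 28.3% ± 1.10 to 20.7% ± 1.45 and FGFR3 from 24.6% ± 1.05 to 31.2% ± 0.449. The summed level of the 4 receptors was 27.0 ± 1.01 and 22.8 ± 1.70 CPM per kilobase of union exon length.

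**Figure D3:**
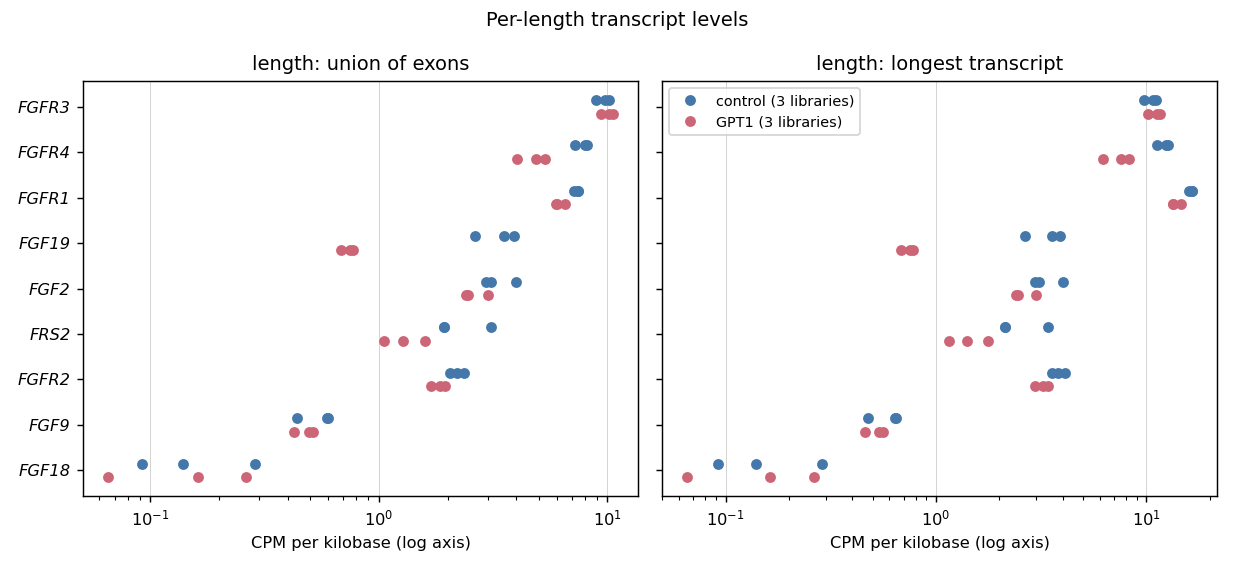
CPM per kilobase (x axis, log scale) of 9 genes in the 3 control (blue) and 3 GPT1 libraries (red), divided by union exon length (left) or by the length of the longest transcript (right). FGF19 lies near FGF2 in the controls (3.36 and 3.35) and well below it in the GPT1 libraries (0.735 and 2.62); KLB, with at most 2 counts per library, is not drawn.

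The pathway lists from here on were chosen with earlier results of these data known, so their counts and p-values are descriptions. Among 18 other genes of the FGF family, listed here as other FGF ligands, 6 had enough counts to be tested. Of these FGF21 rose, beside 10.5% of all tested genes. FGF21, a stress-induced endocrine FGF that also signals through KLB, had 3.45, 4.38 and 3.47 CPM in the controls and 5.95, 6.29 and 6.17 CPM in the GPT1 libraries. All GPT1 libraries lay above all controls (log2 fold change 0.70 ± 0.15 SE, adjusted p = 0.00947, edgeR). After the length and GC correction the value was 0.53. On CPM per kilobase of union exon length, FGF19 and FGF21 were alike in the controls, with 3.89, 3.55 and 2.64 for FGF19 and 2.62, 3.33 and 2.64 for FGF21. In the GPT1 libraries FGF19 stood at 0.776, 0.750 and 0.681 and FGF21 at 4.52, 4.78 and 4.70, so that the order of the endocrine ligands was clear there. The other tested genes of the list, FGF5, FGF8, FGF11, FGF12 and FGF13, did not pass. Some of them, such as FGF12 and FGF13, are intracellular and do not act as receptor ligands. The median over the 6 was 0.01, against -0.02 over all tested genes. After the length and GC correction the medians were 0.33 and 0.02, and 2 of the 6 genes were called higher. Of all 17638 tested genes 3437 were called higher under that correction.

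Among 42 genes that hold or modify FGF ligands at the cell surface, for co-receptors, FGF-binding proteins and heparan sulfate, 37 were tested, 12 fell, 3 rose and 22 did not pass. The median log2 fold change was -0.20. Of all tested genes 14.6% fell and 10.5% rose, so falls outnumbered rises there as well. HSPG2, the gene of the basement membrane proteoglycan perlecan, went from 63.9, 53.7 and 53.5 CPM in the controls to 29.7, 29.5 and 32.2 CPM in the GPT1 libraries. Its fall was 1.88-fold and the groups did not overlap (adjusted p = 0.00044, edgeR). SULF1, a sulfatase that trims heparan sulfate, fell from 16.1 ± 3.76 to 7.79 ± 1.26 CPM (SD, n = 3 per group) and the glypican gene GPC2 from 6.73 ± 0.835 to 3.39 ± 0.554 CPM. XYLT1, which starts the sugar chain on the core protein, GPC6 and AGRN, the gene of the proteoglycan agrin, fell too (log2 fold changes -1.09 ± 0.20, -0.76 ± 0.15 and -0.51 ± 0.10 SE). HSPG2 and GPC6 stood at -0.68 and -0.45 after the length and GC correction. The list's count of 15 called genes was 8 without GPT1 replicate 1 or without GPT1 replicate 3. Over all genes the 4430 called became 1586 and 1443 in these fits. Summed epithelial markers were also lower over the 3 GPT1 libraries (567 to 626 against 908 to 1034 CPM in the controls). So were summed neural and kidney-line markers (254 to 263 against 464 to 567 CPM), while summed fibroblast markers were higher (68.3 to 70.3 against 54.5 to 58.6 CPM). Any relation between these markers and the genes of the list was not tested.

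Among adaptors and kinases between the receptor and the nucleus, 36 of 37 were tested, 12 fell, 2 rose and 22 did not pass (median -0.12), beside 14.6% of all tested genes lower and 10.5% higher. After the length and GC correction 7 were lower and 5 higher, against 2663 lower and 3437 higher among all tested genes. STAT5A, a transcription factor downstream of several receptor kinases, fell from a low level, 1.31 ± 0.105 to 0.379 ± 0.180 CPM (SD, n = 3 per group), with no overlap between the groups (log2 fold change -1.78 ± 0.34 SE, adjusted p = 0.00622, edgeR). HRAS rose from 52.3 ± 4 to 71.2 ± 7.05 CPM and AKT1 from 197 ± 19.0 to 258 ± 11.8 CPM. The RAS activator SOS1, which FRS2 recruits through GRB2, fell with a log2 fold change of -0.60 ± 0.15 (SE), but stood at -0.13 after the length and GC correction, under which it did not pass. The list's count of 14 called genes became 8 without control replicate 1 and 2 without GPT1 replicate 1 or without GPT1 replicate 3. Over all genes the 4430 called became 2565, 1586 and 1443 in these fits. HRAS, AKT1 and SOS1 did not pass without either of those GPT1 libraries (edgeR adjusted p up to 0.072, 0.0657 and 0.197 over all alternatives).

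Feedback inhibitors and response genes of FGF signalling, most of which answer to other receptor tyrosine kinases too, had lower values in the GPT1 libraries for 19 of 23 members. Among all 17638 tested genes 9200 had a negative log2 fold change, with a median of -0.02. Of the 23, 15 fell, 0 rose and 8 did not pass, beside 14.6% of all tested genes lower and 10.5% higher. The median was -0.60 on the log2 scale. The list was chosen with earlier results of these data known, so nothing is read from these counts. With DESeq2 size factors, with a minimum mean of 1 CPM and without control replicate 1, 1 gene was called higher. FOSL1, an AP-1 subunit gene named with its value in view, was the gene nearest to a call in that direction (log2 fold change 0.41 ± 0.14 SE, adjusted p = 0.0529, edgeR). With every library corrected for length and GC content the median was -0.45, with 13 lower and 0 higher. Over all tested genes the corrected median was 0.02, with 2663 lower and 3437 higher. SPRY4, a Sprouty inhibitor of the RAS cascade, had 2.75, 2.54 and 2.40 CPM in the controls and 0.740, 0.884 and 0.817 CPM in the GPT1 libraries. The groups were far apart for this gene, with a 3.15-fold fall (adjusted p = 0.00054, edgeR). IER3 fell from 26.5 ± 1.84 to 11.3 ± 1.20 CPM (SD, n = 3 per group) and EGR1, an early zinc-finger factor, from 13.9 ± 0.977 to 7.22 ± 0.480 CPM. DUSP6 (-2.32 ± 0.20 SE), PHLDA1 (-1.64 ± 0.14) and MYC (-0.60 ± 0.08) were also among the 6 genes with the smallest adjusted p. Whether these falls involve FGF receptors, or any receptor at all, was not tested.

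**Figure D4:**
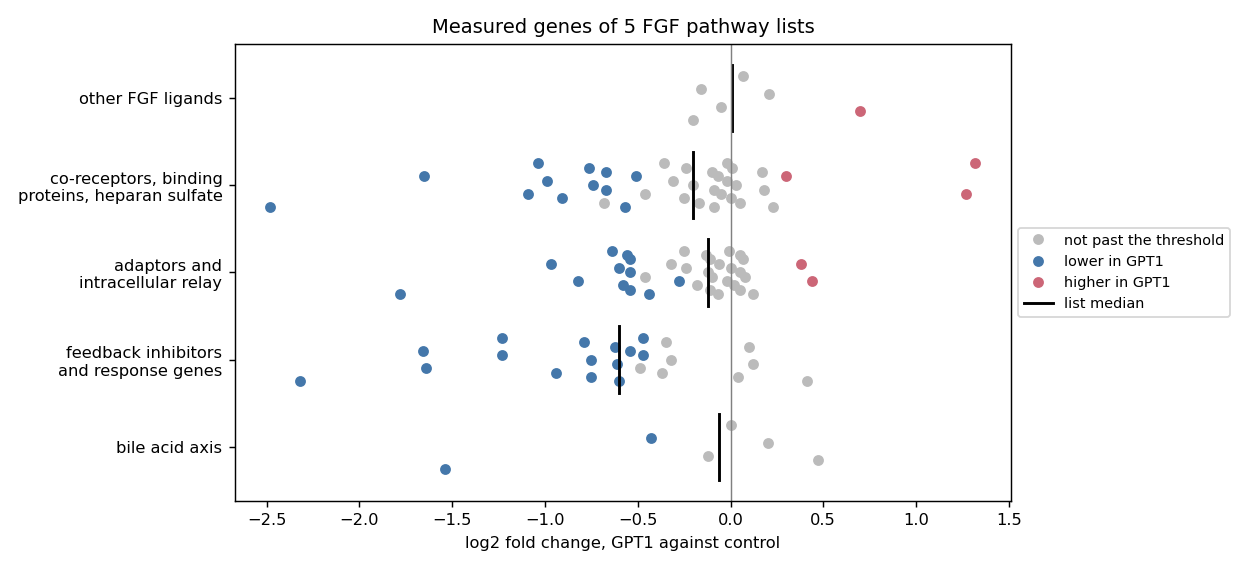
log2 fold change of GPT1 against control (x axis) for the tested genes of 5 lists around FGF signalling; each point is a gene, coloured by its direction where the edgeR adjusted p is under 0.05 and grey otherwise, and black bars are list medians. The feedback and response list has its median at -0.60 and no gene called higher. The list of other FGF ligands, which includes intracellular members, centres at 0.01 (0.33 after the length and GC correction, not drawn). In it FGF21 is called higher at 0.70.

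The bile acid axis that controls FGF19 in the ileum was largely silent. NR1H4, which encodes the bile acid receptor FXR, the bile acid carriers SLC10A2 and SLC10A1 and the synthesis enzyme CYP8B1 had 0 counts in every library. A count of 0 in 178300242 allows up to 0.0168 CPM over the 6 libraries (3 counts, counting error only). Of 19 genes, 6 were tested and 2 fell, beside 14.6% of all tested genes. HNF4A, a transcription factor of liver and gut epithelium, had 3.18, 2.60 and 3.14 CPM in the controls and 0.901, 0.950 and 1.21 CPM in the GPT1 libraries. All GPT1 libraries lay below the controls, and HNF4A fell 2.90-fold (log2 fold change -1.54 ± 0.20 SE, adjusted p = 0.00091, edgeR). VDR, the vitamin D receptor, which also binds a bile acid, fell from 18.9 ± 0.529 to 14.1 ± 1.26 CPM (SD, n = 3 per group) and did not pass in 5 of the 6 fits without 1 library, the exception being control replicate 3 (edgeR adjusted p up to 0.0886). RXRA, the partner of FXR and VDR, stood at 58.0 ± 5.28 and 58.1 ± 3.87 CPM. NR5A2, RXRB and CYP27A1, the other tested genes, did not pass (log2 fold changes -0.12, 0.20 and 0.47).

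FGF19 lies in the gene cluster at 11q13 that is often amplified in carcinomas, and its neighbours did not move together. CCND1, the cyclin D1 gene, which also counts in the feedback and response list, ends 50 kb centromeric of the FGF19 start and fell from 78.3, 73.4 and 70.7 CPM to 47.0, 52.8 and 53.1 CPM. Its groups did not overlap (log2 fold change -0.54 ± 0.09 SE, adjusted p = 0.00377, edgeR). LTO1, whose end overlaps that of CCND1 on the opposite strand and which is the nearest listed gene to FGF19, stood at 30.2 ± 1.71 and 33.6 ± 1.08 CPM (SD, n = 3 per group) and did not pass. FGF4 and FGF3, 66 and 105 kb away on the telomeric side, had 0 counts and at most 2 counts in any library. Farther out MYEOV (-1.20 ± 0.27 SE), the chloride channel gene ANO1 (-1.11 ± 0.26) and the synaptic scaffold gene SHANK2 (-0.89 ± 0.15) fell. TPCN2, an endolysosomal channel gene (0.47 ± 0.13), and FADD, a death receptor adaptor gene (0.36 ± 0.11), rose. MRPL21, IGHMBP2, PPFIA1 and CTTN did not pass (0.33, 0.11, -0.08 and 0.18), and MRGPRF had too few counts. Of the 14 genes listed, 11 were tested, 6 were called, beside 25.1% of all tested genes, and the median was 0.11. Leaving out control replicate 1 or GPT1 replicate 3 lowered the 6 to 3, and TPCN2, FADD and ANO1 were the genes that did not pass then (edgeR adjusted p up to 0.117, 0.144 and 0.0588).

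**Figure D5:**
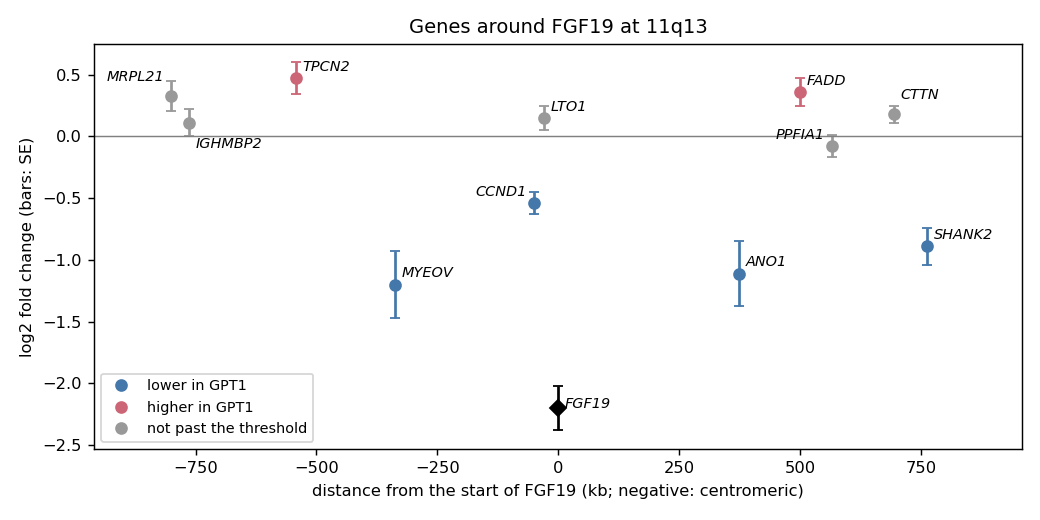
log2 fold change of GPT1 against control (y axis, bars SE) against distance from the start of FGF19 in kb (x axis, gene edge nearest to that start) for FGF19 (black diamond) and 11 tested genes at 11q13, blue if lower, red if higher and grey if not past the threshold. FGF19 at -2.20 is the lowest point, its neighbour LTO1 lies at 0.15, and genes called lower and higher lie on both sides.

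To see which genes had the profile most like that of FGF19, the root mean square distance between log2 CPM profiles, each centred on its mean over the 6 libraries, was computed for 11725 genes with a mean of at least 5 CPM. The 5 nearest were KLK6, a secreted serine protease gene (0.063), the transporter gene ABCC3 (0.129), CDCP1, a cell surface glycoprotein gene (0.137), the tight-junction gene CLDN4 (0.163) and TINAGL1, a matrix protein gene (0.168). The median distance over all genes was 1.07. KLK6 had 12.4, 12.2 and 9.33 CPM in the controls and 2.51, 2.72 and 2.32 CPM in the GPT1 libraries. Like FGF19 it was lowest among the controls in replicate 3 and separated from the GPT1 libraries in full. The profiles hold 2 groups of 3 libraries, so likeness rests mainly on the difference between the groups for which FGF19 was chosen.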

How the data were processed

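Libraries of mRNA from 6 HCT8 samples were sequenced after Trizol extraction, per the labels' protocols. The authors deposited raw read counts per Ensembl gene, 1 column per sample. HISAT2 2.0 and GRCh38 are named in the submitters' processing notes, and the counting tool, annotation release and strandedness were not given in the sources used here. Symbols matched 60652 of 60664 identifiers. Coordinates, union exon lengths, transcript lengths and GC content are from GENCODE 29 on GRCh38, which held 58396 of them.

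Counts were fitted in R 4.3.3 with edgeR 4.0.16: filterByExpr (17638 genes kept), TMM factors, quasi-likelihood F test of GPT1 against control, two-sided, Benjamini-Hochberg adjustment over all tested genes and a threshold of 0.05. TMM-scaled library sizes underlie the CPM of each gene; marker sums use plain library totals. Standard errors come from the fold change and its F statistic. Alternatives were other scaling and filters, DESeq2 1.42.0, limma 3.58.1 voom, a block for the replicate number, omission of each library in turn, and smooth offsets (mgcv 1.9.3) for transcript length and GC content, which 98.9% of tested genes had. Replicate pairs differed by a chi-square per degree of freedom of 9.98 to 30.8 over genes with at least 20 counts. This is above counting noise, so no pair was merged as 1 library deposited again; it does not show that the libraries were separate cultures. The reported edgeR fit was run on simulated counts with known changes and without a length or GC trend. The length and GC correction was run on simulated counts with a GC trend and no changed gene. The other alternatives were not run on simulated data.

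The 10 genes, the 6 pathway lists and the 7 marker lists were chosen with earlier results of these data known. Named genes were the 10 members, GPT, up to 6 genes with the smallest adjusted p in each pathway list, all 11q13 genes and the 5 genes nearest to FGF19 in profile; some genes that this rule names are not reported here. KL, FGFRL1, FGF23, NR1H4, SLC10A2, SLC10A1, CYP8B1, NUDT6, LETM2 and the untested or uncalled genes of the other FGF ligand list were picked with their values in view.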

Additional observations from a re-analysis of the deposited data

How the results depend on the processing

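FGF19 and FGFR4 kept their direction and side of the threshold under all 14 alternatives of the gene test. Their log2 fold changes were -2.32 to -2.07 and -0.81 to -0.60 when 1 library was left out. FGF19 was chosen for its fall in these same libraries and FGFR4 was listed around it. These refits therefore describe the processing and lend the falls no support. FGFR1 did not pass with DESeq2 size factors (-0.23), no expression filter (-0.25), DESeq2 (-0.23), the replicate block (-0.25), the length and GC correction (-0.16) or any library left out (-0.29 to -0.20). FRS2 ranged from -0.97 to -0.55 without 1 library. FGF2 and FGF9 reversed after the length and GC correction (0.09 and 0.13). The cause of these changes was not tested. All genes called numbered 1443 to 4907 when 1 library was left out (2565 without control replicate 1, 1586 without GPT1 replicate 1 and 1443 without GPT1 replicate 3), against 4430, and 3437 higher and 2663 lower after the length and GC correction, against 1858 and 2572. With 1 library left out, members called ranged from 2 to 3, genes of the heparan sulfate list from 8 to 13, adaptors from 2 to 16, the bile acid list from 1 to 2 and the 11q13 list from 3 to 7. With all libraries, 4 members were called with library totals, a minimum mean of 1 CPM or limma voom, as in the reported fit. The length and GC correction called 17 genes of the heparan sulfate list in place of 15. In the list of other FGF ligands it called 2 in place of 1. Per-length control levels by longest transcript were 16.3 for FGFR1, 3.82 for FGFR2, 10.5 for FGFR3 and 12.1 for FGFR4. The deviations of same-numbered libraries correlated at 0.446, -0.658 and -0.172. Because the libraries also deviated along GC content, these values cannot show whether same-numbered libraries were handled together. With the replicate block 3886 genes were called, 3 of them members. KLB and FGF18 had too few counts to pass the expression filter.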

Other observations

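FGF12 and FGF13, intracellular members of the family that bind sodium channels instead of receptors, were expressed in both groups. FGF13 stood at 14.5, 16.3 and 17.2 CPM in the controls and 14, 15.9 and 12.9 CPM in the GPT1 libraries, and FGF12 at 2.24 ± 0.462 and 2.58 ± 0.647 CPM (SD, n = 3 per group). Both overlapped between the groups. FGFRL1, a receptor-like protein that binds FGFs and lacks a kinase domain, had the highest per-length level of the FGF-binding receptors compared, 36.4 ± 4.07 and 32.3 ± 3.47 CPM per kilobase of union exon length, above FGFR3 in every library, and did not pass the threshold (log2 fold change -0.17 ± 0.11 SE). FGF23, the bone-derived endocrine FGF, gave 1 count in each control library and 6, 4 and 2 counts in GPT1 replicates 1 to 3, too few for the fit.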
